A study of Mus musculus with 9 samples.

Results

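The CC chemokine genes encode small secreted proteins that draw leukocytes along a gradient, and 10 of them were examined: Ccl2, Ccl3, Ccl4, Ccl5, Ccl6, Ccl7, Ccl9, Ccl12, Ccl17 and Ccl24. All probes of the array that carry 1 of these symbols were taken, 13 of 45281 probes. Of the 10 genes, 8 had a probe detected on at least 3 of 9 arrays and were tested among 10018 genes. Ccl17 and Ccl24 were detected on 0 arrays. In cells with a NUP98-CDX fusion some rose and others fell: Ccl3 rose in both fusions, while Ccl2 fell in both and Ccl6, Ccl7 and Ccl12 fell in NUP98-CDX4.

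All groups came from marrow of C57/B6 mice, 6 to 8 weeks old and treated with 5-FU, which kills dividing cells. Every culture was kept in IMDM with the cytokines stem cell factor and IL-6 and a serum content of 2%. One group received NUP98-CDX1 by transfection, another NUP98-CDX4, and the control EGFP alone, a green fluorescent protein, with 3 arrays in each. In both fusions a piece of NUP98, from the nuclear pore, is joined to a homeobox transcription factor of the caudal type. The labels name neither the promoter of the constructs nor the number of animals or cultures behind the 3 replicates, so a p-value here reflects sample-to-sample spread that may be technical. Column names also hold a day whose meaning is not stated. It is day 21 in the control, day 28 in NUP98-CDX1, and day 17 or 20 in NUP98-CDX4, so day and group cannot be told apart.

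Each array detected 17257 to 19300 probes (38.1% to 42.6%). Precision is limited by there being 3 arrays a group. Kit and Gata2, of the progenitor list, were detected on all arrays, in EGFP at 12.03 ± 0.20 and 11.73 ± 0.29 (log2 scale, SD, n = 3 arrays). Kit is also on the mast cell list, so these levels do not identify the cells as progenitors. The T cell genes Cd3d, Cd3e and Cd3g were detected on 0 arrays. Clustering on the signals of probes detected on no array split the arrays into a set of 5 and a dimmer set of 4. The brighter 5 were replicate 3 of NUP98-CDX1, replicates 1 and 3 of NUP98-CDX4 and replicates 1 and 2 of the control. The signals of these probes had Spearman correlations of 0.73 to 0.77 within the brighter set, 0.43 to 0.46 within the dimmer set and 0.32 to 0.38 between them. The sets were made from these correlations, which are therefore no separate evidence for the split. Where array set entered the model as a block and a call or a count of calls printed here changed, the second value is given as blocked by array set. All levels are log2 intensities, and ± is the SD over n = 3 arrays. The words rose and fell are kept for a limma p under 0.05 after Benjamini-Hochberg adjustment across the whole table.

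CC chemokines carry a pair of adjacent cysteines near the start of the mature protein and act on G protein-coupled receptors of the Ccr family. Ccl3, Ccl4 and Ccl5 are inflammatory attractants of leukocytes, and Ccl3 and Ccl5 signal through Ccr1. Ccl3 is further known to hold back the division of early blood progenitors. Ccl2, Ccl7 and Ccl12 are monocyte attractants that act on Ccr2, the receptor that lets monocytes leave the marrow. Ccl6 and Ccl9 are mouse chemokines of myeloid cells, while Ccl17 acts on Ccr4 and Ccl24, an eotaxin, on Ccr3.

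Among the 8 tested genes Ccl3 was the one that rose without a block. The control arrays read 9.50, 9.25 and 9.97 for EGFP replicates 1, 2 and 3. NUP98-CDX1 replicates 1, 2 and 3 read 12.06, 12 and 11.73, and those of NUP98-CDX4 read 11.70, 11.70 and 10.98. Every array with a fusion lay above every control array. Ccl3 rose 5.11-fold in NUP98-CDX1, from 9.57 ± 0.37 to 11.93 ± 0.17 (log2 difference 2.35, 95% interval 1.79 to 2.92, limma adjusted p = 0.00311). In NUP98-CDX4 it rose 3.69-fold, to 11.46 ± 0.42 (log2 difference 1.88, interval 1.32 to 2.45, adjusted p = 0.0029). Within the brighter and the dimmer array set the log2 differences were 2.36 and 2.05 for NUP98-CDX1 and 1.96 and 1.72 for NUP98-CDX4. The fusions did not pass against each other (log2 difference of NUP98-CDX4 minus NUP98-CDX1 -0.47, interval -1.03 to 0.09, adjusted p = 0.847). Their arrays did not overlap, although the nearest, NUP98-CDX4 at 11.70 and NUP98-CDX1 at 11.73, lay close together.

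Ccl4, the neighbour and closest functional partner of Ccl3, was less clear. Its brighter probe read 10.70, 10.23 and 11.47 on EGFP replicates 1, 2 and 3. It read 12.17, 12.41 and 11.78 on those of NUP98-CDX1 and 11.17, 11.68 and 10.31 on those of NUP98-CDX4. The NUP98-CDX1 arrays were all above the control, while the NUP98-CDX4 arrays spread across the control range. The mean was 2.50-fold higher in NUP98-CDX1 (log2 difference 1.32, interval 0.44 to 2.20) but did not pass (adjusted p = 0.188). Blocked by array set, it rose (log2 difference 1.05, adjusted p = 0.0386). In NUP98-CDX4 the log2 difference was 0.26 (interval -0.63 to 1.14, adjusted p = 0.918), and its sign turned without EGFP replicate 2 (-0.03) or NUP98-CDX4 replicate 2 (-0.06). A second Ccl4 probe gave log2 differences of 1.07 and 0.35 in the same order, with adjusted p = 0.0987 and 0.671 when every filtered probe was tested.

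Ccl5, an attractant of T cells and monocytes, did not pass in any comparison. It read 7.84, 7.74 and 8.05 on EGFP replicates 1, 2 and 3. It read 6.62, 7.56 and 7.89 on those of NUP98-CDX1 and 7.11, 7.49 and 5.62 on those of NUP98-CDX4. The control arrays lay within a narrow range, whereas 1 array of each fusion was low, replicate 1 of NUP98-CDX1 and replicate 3 of NUP98-CDX4. The log2 differences were -0.52 for NUP98-CDX1 (interval -1.58 to 0.54, adjusted p = 0.726) and -1.14 for NUP98-CDX4 (interval -2.19 to -0.08, adjusted p = 0.272). Within the array sets the NUP98-CDX1 difference took both signs, 0.11 in the brighter and -0.96 in the dimmer set.

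**Figure D1:**
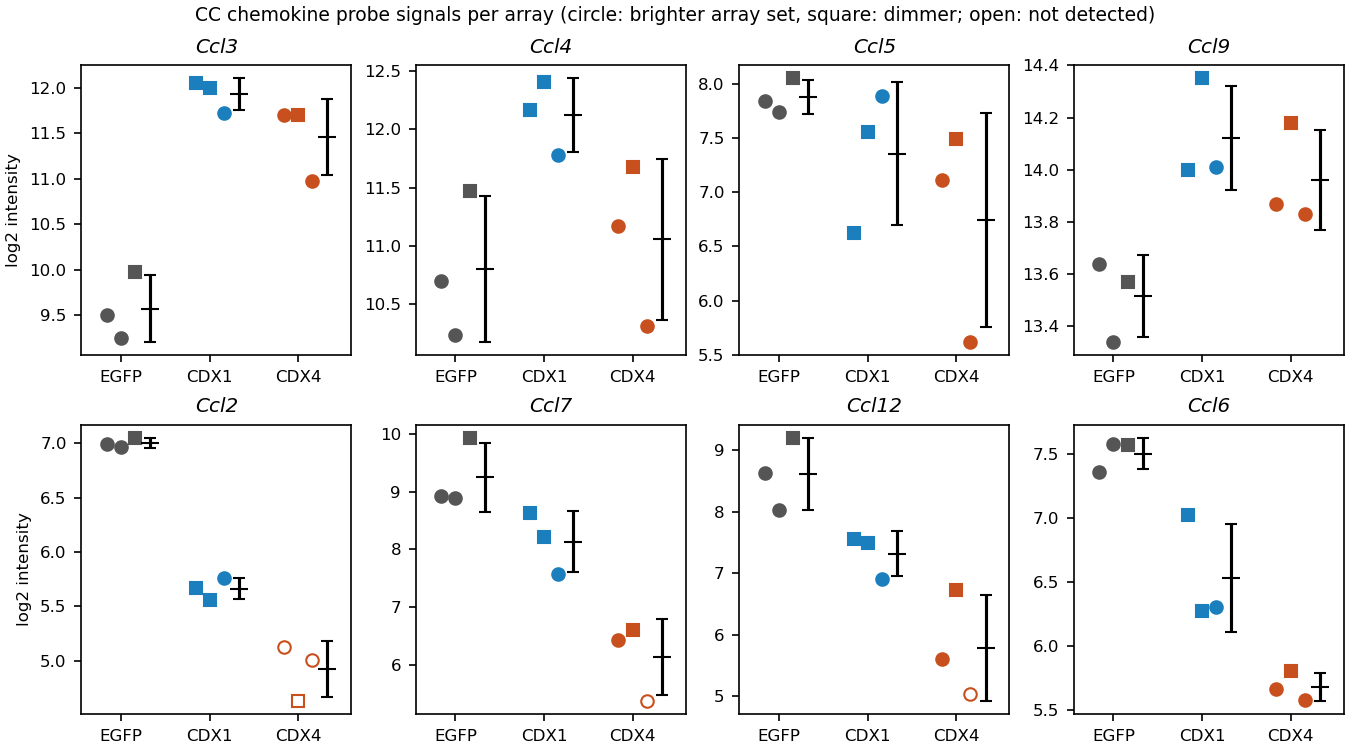
Log2 intensity (vertical axis, a scale of its own for each gene) of the tested probe of 8 CC chemokine genes on each array of EGFP, NUP98-CDX1 (CDX1) and NUP98-CDX4 (CDX4); points are arrays in replicate order, circles the brighter and squares the dimmer array set, open symbols arrays where the probe was not detected, and bars the mean ± SD of 3 arrays. Ccl3 sits between 9.25 and 9.97 in EGFP and between 10.98 and 12.06 with a fusion. The means of Ccl2, Ccl7, Ccl12 and Ccl6 are lower in NUP98-CDX1 than in EGFP and lowest in NUP98-CDX4.

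The monocyte attractants Ccl2, Ccl7 and Ccl12 were highest in EGFP, lower in NUP98-CDX1 and lowest in NUP98-CDX4, with no overlap between the arrays of any pair of groups. Of all tested genes, 6.4% had every NUP98-CDX1 array below every EGFP array. For NUP98-CDX4 the share was 9.87% below EGFP and 5.85% below NUP98-CDX1. Ccl2 read 6.99, 6.96 and 7.05 on EGFP replicates 1, 2 and 3 and 5.67, 5.56 and 5.76 on those of NUP98-CDX1, and it was detected on 0 of 3 NUP98-CDX4 arrays (5.13, 4.63 and 5.01). The spread within EGFP and NUP98-CDX1 was small beside the step between them. Ccl2 fell 2.53-fold in NUP98-CDX1, from 7 ± 0.04 to 5.66 ± 0.10 (interval of the log2 difference -1.70 to -0.98, adjusted p = 0.00585). In NUP98-CDX4 it fell at least 3.14-fold (adjusted p = 0.000259), a bound in which each undetected array is raised to its lowest detected signal. The size rests on the background correction. Without it the log2 differences of Ccl2 were -0.67 with NUP98-CDX1 and -1 with NUP98-CDX4; both passed (adjusted p = 0.0185 and 0.000696). Ccl2 entered the test through EGFP and NUP98-CDX1, where it was detected on all arrays.

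Ccl7 had the largest measured fall of the 8 tested genes in NUP98-CDX4, where Ccl2 has only a bound. It read 8.92, 8.89 and 9.94 on EGFP replicates 1, 2 and 3 and 8.63, 8.21 and 7.57 on those of NUP98-CDX1. NUP98-CDX4 replicates 1, 2 and 3 read 6.42, 6.61 and, undetected, 5.37. All NUP98-CDX1 arrays lay under the lowest control array, and the NUP98-CDX4 arrays lay far under both. Ccl7 fell 8.65-fold in NUP98-CDX4 with the undetected array raised to its lowest detected signal (log2 difference as measured -3.12, interval -4.04 to -2.19, adjusted p = 0.00286). In NUP98-CDX1 the log2 difference was -1.11 (interval -2.04 to -0.18, adjusted p = 0.331), and once blocked by array set it was -1.40 and passed (adjusted p = 0.0158). A second Ccl7 probe gave -1.19 in NUP98-CDX1 and -3.09 in NUP98-CDX4 (adjusted p = 0.303 and 0.00297 with every filtered probe tested).

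Ccl12, which in mice shares the receptor of Ccl2, followed the same order. It read 8.62, 8.03 and 9.20 on EGFP replicates 1, 2 and 3 and 7.56, 7.49 and 6.90 on those of NUP98-CDX1. NUP98-CDX4 replicates 1, 2 and 3 read 5.60, 6.73 and, undetected, 5.03. The groups did not overlap, although the lowest NUP98-CDX1 array at 6.90 and the highest NUP98-CDX4 array at 6.73 lay close together. Ccl12 fell 6.57-fold in NUP98-CDX4 with the undetected array raised (log2 difference as measured -2.83, interval -3.81 to -1.85, adjusted p = 0.00606). In NUP98-CDX1 the log2 difference of -1.30 (interval -2.28 to -0.32) did not pass (adjusted p = 0.261), but it passed once blocked (-1.63, adjusted p = 0.00575). The second Ccl12 probe gave -1.11 and -2.65 in NUP98-CDX1 and NUP98-CDX4.

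The mean differences from EGFP of Ccl6 and Ccl9, neighbours on chromosome 11, had opposite signs. Ccl6 read 7.36, 7.58 and 7.57 on EGFP replicates 1, 2 and 3 and 7.02, 6.27 and 6.30 on those of NUP98-CDX1. It read 5.66, 5.80 and 5.58 on NUP98-CDX4 replicates 1, 2 and 3, where the lowest detected signals were 5.41, 5.26 and 5.38. The groups did not overlap, but the fusions did not pass against each other (adjusted p = 0.212). Ccl6 fell 3.55-fold in NUP98-CDX4, from 7.50 ± 0.12 to 5.68 ± 0.11 (interval of the log2 difference -2.30 to -1.35, adjusted p = 0.00137). In NUP98-CDX1 it was 1.96-fold lower at 6.53 ± 0.43 and did not pass (adjusted p = 0.0757). It passed there once blocked by array set (adjusted p = 0.0153) and without NUP98-CDX1 replicate 1, the highest array of that group, and in 4 of 18 other settings in all.

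Ccl9 read 13.64, 13.34 and 13.57 on EGFP replicates 1, 2 and 3. It read 14.00, 14.35 and 14.01 on those of NUP98-CDX1 and 13.87, 14.18 and 13.83 on those of NUP98-CDX4. Every array with a fusion was higher than every control array, but the step was small. Ccl9 was 1.52-fold higher in NUP98-CDX1 (interval of the log2 difference 0.22 to 0.99, adjusted p = 0.162) and 1.36-fold higher in NUP98-CDX4 (0.06 to 0.82, adjusted p = 0.222), and neither passed. Blocked by array set, the NUP98-CDX4 difference of 0.44 passed (adjusted p = 0.0466), and the NUP98-CDX1 difference of 0.54 did not (adjusted p = 0.0512).

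The bases before the annotated start of Ccl3, Ccl12, Ccl6 and Ccl9 are shown because Ccl3 rose while Ccl12 and Ccl6 fell. All lie on chromosome 11. Ccl9, which did not pass without a block, is a neighbour of Ccl6 and shares short runs of bases with it. The sequences come from RefSeq, build GRCm38.p6, which held an entry for 5 of the 10 genes. Each is 250 bases, 5′ to 3′ on the gene's strand. For Ccl3 (chr11:83649379-83649628, minus strand) and Ccl12 (chr11:82101595-82101844, plus strand) capitals mark matches to the motifs searched. For Ccl6 (chr11:83593088-83593337, minus strand) and Ccl9 (chr11:83578637-83578886, minus strand) they mark runs of at least 10 bases found in both.
Ccl3: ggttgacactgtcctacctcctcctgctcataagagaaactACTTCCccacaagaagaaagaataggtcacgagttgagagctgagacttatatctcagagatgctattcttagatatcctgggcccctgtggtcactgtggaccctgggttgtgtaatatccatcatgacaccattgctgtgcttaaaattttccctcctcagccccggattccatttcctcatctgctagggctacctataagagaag
Ccl12: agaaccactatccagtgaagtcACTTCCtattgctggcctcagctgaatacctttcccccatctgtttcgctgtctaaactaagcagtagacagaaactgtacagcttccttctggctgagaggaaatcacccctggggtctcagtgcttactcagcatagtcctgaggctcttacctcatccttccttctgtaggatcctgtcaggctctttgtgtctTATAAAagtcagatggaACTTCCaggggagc
Ccl6: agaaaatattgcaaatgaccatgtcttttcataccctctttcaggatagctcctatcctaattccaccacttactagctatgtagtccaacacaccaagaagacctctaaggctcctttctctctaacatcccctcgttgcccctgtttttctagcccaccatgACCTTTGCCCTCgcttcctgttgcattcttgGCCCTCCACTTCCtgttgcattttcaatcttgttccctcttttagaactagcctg
Ccl9: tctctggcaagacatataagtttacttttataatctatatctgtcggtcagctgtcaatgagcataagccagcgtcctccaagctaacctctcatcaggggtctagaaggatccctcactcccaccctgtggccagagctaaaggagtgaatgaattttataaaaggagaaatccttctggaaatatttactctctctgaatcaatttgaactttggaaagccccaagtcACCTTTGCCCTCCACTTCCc

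The run in capitals of Ccl9 ends 2 bases before its start, and in Ccl6 its pieces lie in 2 places, with 13 bases the longest run in both. The motifs were searched on both strands in these 250 bases. The ETS core GGAAGT, which shows as ACTTCC on the other strand, was found 1 time in Ccl3, 2 times in Ccl12, 1 time in Ccl6 and 1 time in Ccl9, against a match in 19.7% of 32851 promoters. It was thus present both in Ccl3, which rose, and in Ccl12 and Ccl6, which fell. TATAAA was found 1 time in Ccl12, 31 bases before the start, and 3 times in Ccl9 (12.4% of promoters). The NF-kB core, GGG followed after 5 bases by CC (45.8%), was found 1 time in Ccl9 and not in the other 3 windows. The same held for TGANTCA (6.75%), a loose AP-1 pattern that takes any centre base. Its match in Ccl9 reads TGAATCA. The C/EBP motif TTGCNNAA (9.56%) and the interferon response motif, GAAA followed after 2 bases by GAAA (2.98%), were found in none of the 4. A match is a string of letters and not a measured site.

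Against EGFP, 2 of 8 tested chemokines passed in NUP98-CDX1, where 1.23% of all tested genes passed. Of these 1 was higher and 1 lower, beside 0.729% and 0.499% of all genes. In NUP98-CDX4, 5 of 8 passed, where 6.1% of all genes passed. Of these 1 was higher and 4 were lower, beside 2.74% and 3.36% of all genes. Blocked by array set, the counts were 6 of 8 for each fusion, 2 higher and 4 lower, beside 6.18% and 18.3% of all genes. The median log2 difference of the 8 genes was -0.75 for NUP98-CDX1 and -1.48 for NUP98-CDX4, against 0.03 over all tested genes in both. The comparisons share the EGFP arrays. The 8 genes were chosen with earlier results of these data known, so these counts and medians do not test for an excess. The same holds for the counts between the fusions. In NUP98-CDX1 all 3 arrays lay above all controls for 3 of the 8 genes (9.86% of all genes) and below them for 4 (6.4%). In NUP98-CDX4 they lay above for 2 (12.6%) and below for 5 (9.87%).

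**Figure D2:**
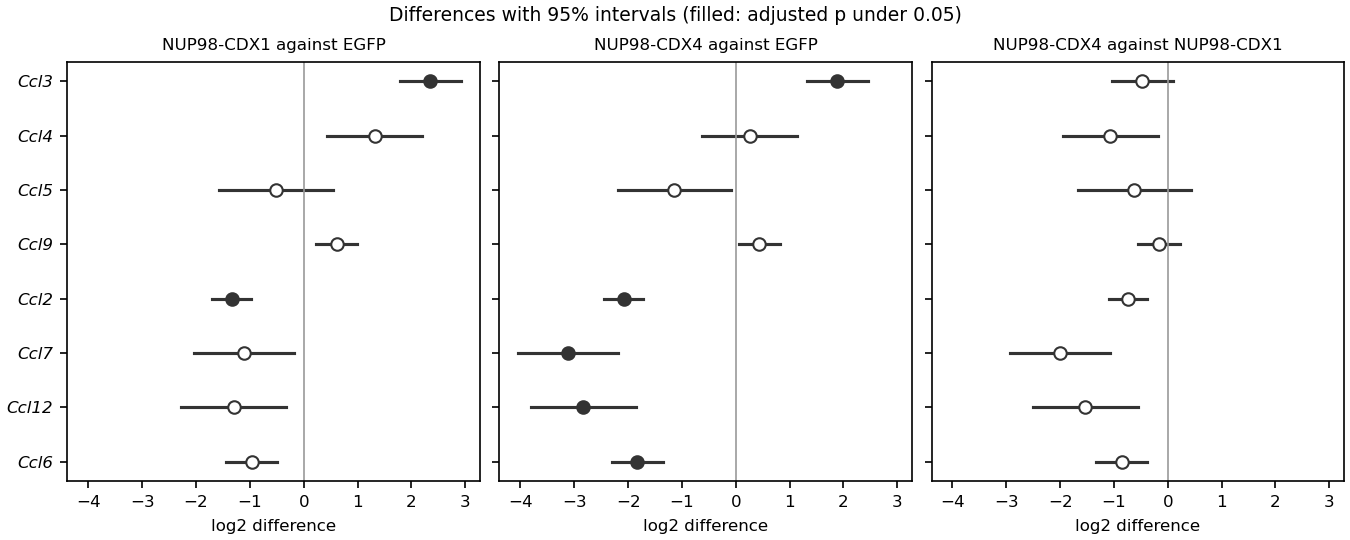
Log2 differences (horizontal axis) of 8 CC chemokine genes in 3 comparisons of 3 arrays each, with bars for the 95% interval of the limma fit and filled points for adjusted p under 0.05. Ccl3 and Ccl2 are filled in NUP98-CDX1, Ccl3, Ccl2, Ccl7, Ccl12 and Ccl6 in NUP98-CDX4, and no gene between the fusions; the Ccl2 points involving NUP98-CDX4 rest on arrays where it was not detected.

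Between the fusions, NUP98-CDX4 minus NUP98-CDX1, 0 of 8 chemokines passed in the limma fit, where 0.18% of all genes passed, 0.0399% as higher and 0.14% as lower. At an unadjusted p under 0.05 there were 5, Ccl4, Ccl2, Ccl7, Ccl12 and Ccl6, all lower in NUP98-CDX4, where 4.71% of all genes were lower at that threshold. The 3 NUP98-CDX4 arrays lay below the 3 NUP98-CDX1 arrays for 6 of 8 genes (5.85% of all genes), Ccl3 being the sixth, and above them for 0 (4.65%). Blocked by array set, Ccl7 (log2 difference -1.72, adjusted p = 0.0189) and Ccl12 (-1.21, adjusted p = 0.0421) fell. Ccl2, not detected on any NUP98-CDX4 array, passed as well (adjusted p = 0.0234), with a bound of at least 1.24-fold lower from the unblocked values. These were 3 of 8, beside 1.68% of all genes. Without the block the differences were -2 for Ccl7 (interval -2.93 to -1.08) and -1.53 for Ccl12 (-2.51 to -0.55), and adjusted p was 0.133 and 0.315, with 0.15 for Ccl2.

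**Figure D3:**
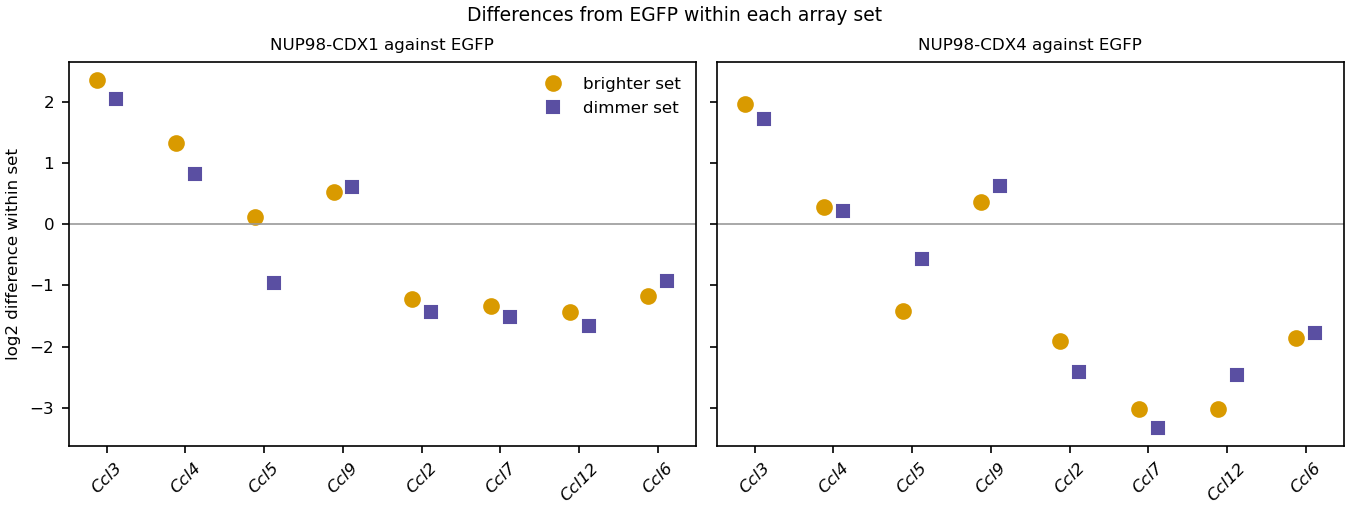
Log2 difference from EGFP (vertical axis) of 8 CC chemokine genes computed only from the 5 arrays of the brighter set (circles) or the 4 arrays of the dimmer set (squares), shown as values with no test; some groups hold a single array there. Apart from Ccl5 in NUP98-CDX1, both sets give each gene the same sign, with Ccl3 at 1.72 to 2.36 and Ccl7 in NUP98-CDX4 at -3.01 and -3.33.

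By gene order in RefSeq, Ccl2, Ccl7, Ccl12 and Ccl8 lie in 1 stretch of chromosome 11, with the undetected Ccl11 among them and the undetected Ccl1 after them. Ccl5, Ccl9, Ccl6, Ccl3 and Ccl4 follow each other further along. Ccl8, a monocyte attractant outside the 10 genes, read 7.74 ± 0.17 in the control, 6.52 ± 0.52 with NUP98-CDX1 and 5.12 ± 0.58 with NUP98-CDX4, where it was detected on 1 of 3 arrays. It fell 4.64-fold in NUP98-CDX4 with the undetected arrays raised (adjusted p = 0.00214) and did not pass in NUP98-CDX1 (log2 difference -1.21, adjusted p = 0.144, or 0.0484 once blocked by array set). The means of all 4 measured genes of the first stretch were thus lower with both fusions. In NUP98-CDX1 only Ccl2 of these passed without the block. In the second stretch Ccl6 lay between Ccl9 and Ccl3, whose means were higher than in EGFP, although Ccl9 did not pass without the block.

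**Figure D4:**
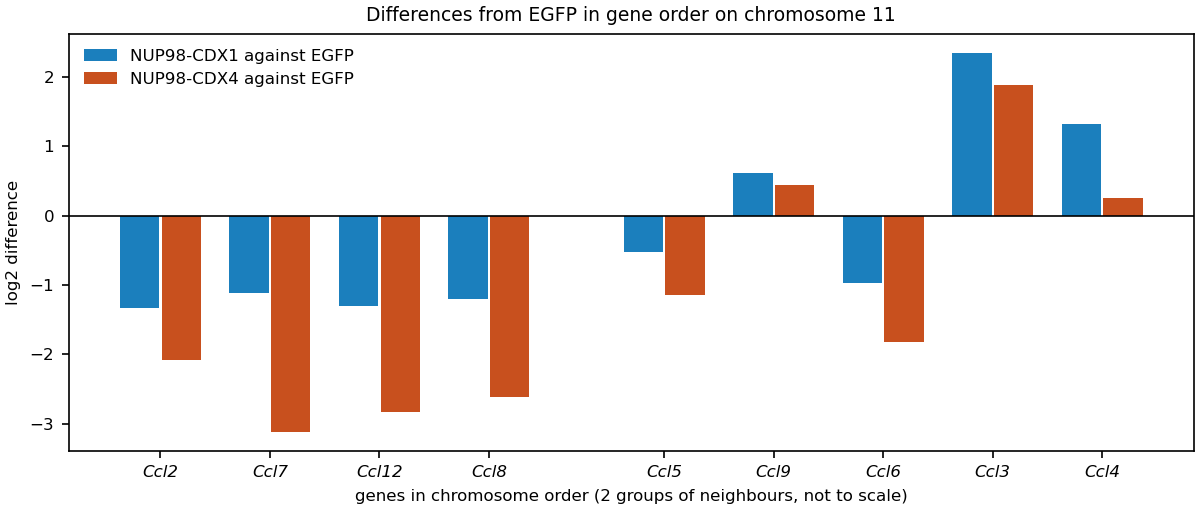
Log2 difference from EGFP (vertical axis) of 9 CC chemokine genes in their order along chromosome 11, as bars from 0 for NUP98-CDX1 and NUP98-CDX4, with spacing not to scale. The 4 genes at the left all lie below 0 and reach -3.12 for Ccl7 in NUP98-CDX4, while the 5 at the right take both signs, from -1.83 for Ccl6 to 2.35 for Ccl3; Ccl2 in NUP98-CDX4 was not detected.

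Over the 9 arrays the 6 pairs among Ccl2, Ccl7, Ccl12 and Ccl6 had Pearson correlations of 0.84 to 0.97. Ccl3 correlated with these genes at -0.82 to -0.49 and with Ccl9 at 0.90, and Ccl4 correlated with Ccl3 at 0.74. These values describe 9 arrays that share groups and array sets. Among genes detected on all arrays, the patterns most like Ccl3 were those of Asph (0.969), Abi2 (0.965) and Dmwd (0.952), and after removal of the array set means those of Per1 (0.982), Bcor (0.981) and Nsdhl (0.974). Asph, an aspartate hydroxylase, read 7.83 ± 0.12 in the control, 8.91 ± 0.22 with NUP98-CDX1 and 8.70 ± 0.08 with NUP98-CDX4. The patterns most like Ccl7 were those of Tspoap1 (0.992), the semaphorin and growth factor receptor Nrp1 (0.983) and Dgat2 (0.982), a triglyceride-forming enzyme. Dgat2 read 9.75 ± 0.39, 9.15 ± 0.51 and 7.31 ± 0.39 in the same order of groups. After removal of the set means Tspoap1 (0.992), Prkcb (0.988) and Nrp1 (0.982) led.

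Of 14 CC chemokine receptor genes on the array 3 were measured, and none of the 3 passed in any comparison with EGFP. Ccr2, the receptor of the monocyte attractants, read 8.82 ± 0.67 in the control, 8.06 ± 0.64 with NUP98-CDX1 and 7.42 ± 0.65 with NUP98-CDX4 (adjusted p = 0.596 and 0.13). Blocked by array set, it passed as lower in both (adjusted p = 0.00867 and 0.000694). Ccrl2, a receptor that binds the attractant chemerin, read 7.27 ± 0.21, 7.92 ± 0.28 and 7.49 ± 0.50, and the scavenging receptor Ackr4 read 6.21 ± 0.60, 5.94 ± 0.59 and 6.52 ± 0.60. The probes of Ccr1, Ccr3 and Ccr4 were detected on 0 arrays. Of 12 further CC chemokines on the array 3 were measured, Ccl8, Ccl25 and Ccl27a, and of these Ccl8 fell in NUP98-CDX4 and the others did not pass.

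Of 11 measured genes of chemokine signalling none passed in NUP98-CDX1 and 1 fell in NUP98-CDX4, Rac2, a GTPase of leukocyte movement (1.57-fold, adjusted p = 0.0474). With the block Rgs1 passed as higher for NUP98-CDX1 (adjusted p = 0.0466), while for NUP98-CDX4 Elmo1 passed as higher (0.0186) and Arrb2 as lower (0.0176) beside Rac2. For this list and those below, the shares of all genes that passed were 1.23% in NUP98-CDX1 and 6.1% in NUP98-CDX4. With array set as a block they were 6.18% and 18.3%. Of 18 measured NF-kB and inflammatory genes none passed in NUP98-CDX1. In NUP98-CDX4 Tnfaip3, an inhibitor of NF-kB signalling, rose 2.29-fold (adjusted p = 0.0268), the kinase gene Ikbke fell 1.82-fold (adjusted p = 0.0335) and 16 did not pass. Tnfaip3, once blocked by array set, passed as higher in NUP98-CDX1 (adjusted p = 0.0341). In NUP98-CDX4 the blocked counts were 4 higher and 2 lower, with Tnf, Ier3 and Rela among the higher and Cd40 among the lower. Cd40 was detected on 0 NUP98-CDX4 arrays, and its bound from the unblocked values was 1.52-fold. The medians of this list were 0.21 and 0.04, against 0.03 over all genes. Of 12 immediate early genes, which answer to fresh stimulation or handling, none passed in NUP98-CDX1 (median 0.69), and Atf3, a stress-induced repressor, fell in NUP98-CDX4 (2.78-fold with undetected arrays raised, adjusted p = 0.0401), with 11 not passing. Dusp2 passed as higher there once blocked by array set (adjusted p = 0.0235). Their mean level was 7.77 to 8.26 on EGFP arrays, 8.11 to 9.51 on NUP98-CDX1 arrays and 7.94 to 8.46 on NUP98-CDX4 arrays. The highest, 9.51, was NUP98-CDX1 replicate 1. The rise of Ccl3 was called with both fusions also without that array. The part of stimulation or handling in this rise was not tested.

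Markers of mature myeloid cells moved with the falling chemokines. Of 8 measured monocyte and macrophage markers 3 fell with NUP98-CDX1 and 6 with NUP98-CDX4, and none rose. All 8 fell with each fusion once blocked by array set. Adgre1, the macrophage marker F4/80, fell 2.46-fold and 4.18-fold (adjusted p = 0.0281 and 0.00104), and Csf1r, the receptor for the macrophage growth factor, fell 2.40-fold in NUP98-CDX4 (adjusted p = 0.0039). C1qa, a complement gene of macrophages, was not detected with either fusion. The mean level of the list was 8.64 to 9.25 in the control, 7.79 to 8.21 with NUP98-CDX1 and 6.89 to 7.60 with NUP98-CDX4, without overlap. Of 9 neutrophil markers 4 and 8 fell (mean levels 10.68 to 11.07, 9.36 to 9.40 and 7.15 to 8.23 in the same order of groups), and Mmp9 was not detected with either fusion. With the block 5 and 8 fell, and Cxcr2 passed as higher in NUP98-CDX4. Of 9 mast cell markers 4 and 8 fell (9.52 to 10.19, 8.11 to 8.51 and 6.83 to 6.92). Tpsb2 was not detected with either fusion, and Cma1, Cma2 and Mcpt4 were not detected in NUP98-CDX4. The part of these cell types in the falls of Ccl2, Ccl6, Ccl7 and Ccl12 was not tested, and in bulk RNA fewer cells of a type cannot be told apart from less RNA per cell.

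Of 3 basophil markers none passed in NUP98-CDX1 and Cd200r3 fell 4.76-fold in NUP98-CDX4, and of 3 eosinophil markers Prg2 fell 10.1-fold in NUP98-CDX4. With the block all 3 basophil markers fell in NUP98-CDX4, and the eosinophil marker Prg2 fell with both fusions. Epx passed as lower with both too, but it was undetected with either fusion. Its bounds from the unblocked values were 1.1-fold for NUP98-CDX1 and 1.06-fold for NUP98-CDX4. Of 3 dendritic cell and 2 B cell markers none passed with either fusion, except that Cd74 passed as lower in NUP98-CDX4 once blocked (adjusted p = 0.0406). Of 7 T and NK cell markers on the array 2 were measured. Nkg7 rose with both fusions, and Prf1 did not pass. Of 6 stroma and endothelium markers on the array 2 were measured, and Pecam1 rose in NUP98-CDX4. Of 5 progenitor markers Hoxa9 rose in NUP98-CDX1 (4.38-fold) and Hoxa9 and Meis1 in NUP98-CDX4 (7.44-fold and 3.43-fold), and once blocked Meis1 also passed in NUP98-CDX1 (adjusted p = 0.0136). Of 17 type I interferon response genes, a group that often moves with monocyte attractants, 2 fell with NUP98-CDX1 and all 17 with NUP98-CDX4, where the median log2 difference was -2.47. Once blocked, 6 fell with NUP98-CDX1 and 17 with NUP98-CDX4. Of 8 genes of the STAT6 pathway and alternative macrophage activation, a programme under which Ccl17 and Ccl24 are induced, none passed in NUP98-CDX1. In NUP98-CDX4 Clec10a rose at least 2.96-fold (adjusted p = 0.000779), Chil3 fell 13.1-fold with the undetected array raised (adjusted p = 0.00339) and Mrc1 fell 3.10-fold (adjusted p = 0.0417). Once blocked, Il4ra and Mrc1 passed as lower with NUP98-CDX1, while with NUP98-CDX4 Mgl2 passed as higher and Il13ra1 as lower besides. Il4ra was detected on 0 NUP98-CDX1 arrays, and its bound there from the unblocked values was 1.49-fold.

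Ccl17 and Ccl24 were not measurable above background. The Ccl17 probe read 4.47 to 5.20 and the Ccl24 probe 4.52 to 5.11 over the 9 arrays, where the lowest signals of detected probes were 5.18 to 5.45. No fold is given for either gene. Neither passed the detection filter, so neither was among the 8 tested genes, and neither passed in a fit without the filter (adjusted p of 0.441 to 1 for Ccl17 and 0.955 to 0.993 for Ccl24 over the 3 comparisons).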

How the data were processed

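Total RNA of 9 samples, 3 per group, was hybridised to single-colour Illumina mouse bead arrays as biotin-labelled cRNA, per the labels' protocols. The intensity values used are the probe signals deposited by the authors without normalization, and a deposited detection p-value stands beside each signal. The submitters' processing notes name GenomeStudio without a version. A processed table by the authors holds intensities on a linear scale whose normalization is unknown (column medians 84.28 to 85.81), and it served as an alternative.

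The neqc function of limma 3.58.1 (R 4.3.3, offset 16) corrected background, normalized by quantiles and gave log2 values. A probe stayed if 3 or more of 9 arrays had a detection p under 0.05 (19472 probes), and the brightest stood for a gene, giving 13160 features, 10018 of them named genes. Symbols came from the platform annotation, and 34807 probes matched RefSeq by Entrez number. All 9 arrays entered 1 limma model of group means. Counts over all genes are of named genes, and p-values are adjusted over all features. Other probes of a gene were tested in a fit of all filtered probes. The pipeline was tested on simulated data.

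The members and lists were chosen with earlier results of these data known. Named were all 10 genes, up to 4 called members of each list and the 3 genes most like the largest riser and faller; not every eligible list gene is printed, and Ccr2, Ccrl2, Ackr4, Kit, Gata2, Ccl25, Ccl27a and genes said to be undetected were added to complete a count or a check. Alternatives were another filter, probe choice, background correction, scaling, the deposited processed values, blocks, and leaving out each array. The folds of the dimmer chemokine probes depend on the background correction, and the closing section gives values without it. Genes named because their call appeared once array set was a block were chosen after their values were seen.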

Additional observations from a re-analysis of the deposited data

How the results depend on the processing

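Of 18 other settings, the calls of Ccl3 and Ccl2 in both fusions and of Ccl6, Ccl7 and Ccl12 in NUP98-CDX4 held in all 18. Adjusted p ranged from 0.000478 to 0.0329 for Ccl3 and 0.000971 to 0.0484 for Ccl2 in NUP98-CDX1. With array set as a block, the number of chemokines called was 6 in NUP98-CDX1 and 3 between the fusions, against 2 and 0. Leaving out each array gave 2 to 3 chemokines in NUP98-CDX1, 5 in NUP98-CDX4 and 0 between the fusions. Sizes of the falling genes moved more. Without background correction the log2 differences in NUP98-CDX4 were -2.17 for Ccl7, -1.78 for Ccl12, -0.99 for Ccl6 and -1 for Ccl2, and -0.67 for Ccl2 in NUP98-CDX1, against -3.12, -2.83, -1.83, -2.08 and -1.34. On the deposited processed values they were -2.36, -1.98, -1.13, -1.11 and -0.75. Ccl3 moved less, to 2.24 or 2.25 in NUP98-CDX1. The sign turned for Ccl4 in NUP98-CDX4 without EGFP replicate 2 (-0.03) and without NUP98-CDX4 replicate 2 (-0.06), the lowest of a range that reached 0.63; the cause was not tested.

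Counts over all named genes moved further. The 123, 611 and 18 genes called in NUP98-CDX1, NUP98-CDX4 and between the fusions became 619, 1835 and 168 with array set as a block, and 31, 371 and 1 with the replicate block. Of 9 same-numbered pairs 3 correlated above 0.1 (-0.79 to 0.67), and these 3 were the pairs within 1 array set. Array set thus hides whether the replicate numbers pair the samples. Under the replicate block the chemokine counts were 2, 5 and 0, as without it. Between the fusions 8 genes were called with no detection filter and 3 from only the groups compared. Leaving out each array gave 24 to 133, 277 to 638 and 0 to 30. Signals near background limit Ccl2, Ccl7 and Ccl12 in NUP98-CDX4 to bounds or raised values.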

Other observations

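Among chemokines of other classes 7 of 15 genes on the array were measured. The platelet chemokine Ppbp fell 4.11-fold in NUP98-CDX4 with the undetected array raised (8.07 ± 0.60 in EGFP, 6.02 ± 0.75 in NUP98-CDX4, n = 3 arrays each, limma adjusted p = 0.0379), and no other passed in either comparison with EGFP. Once blocked by array set, Cxcl16 passed as lower with both fusions (adjusted p = 0.0428 and 0.00212) and Cxcl10 in NUP98-CDX4 (0.0279). Cxcl2, a neutrophil attractant singled out after its values were seen, was detected on all 3 NUP98-CDX1 arrays (5.54, 6.26 and 7.35 from lowest to highest) and on 0 of the EGFP and 0 of the NUP98-CDX4 arrays. It did not pass in NUP98-CDX1 (adjusted p = 0.0682, or 0.0239 once blocked by array set). Of 4 measured receptors of other chemokine classes, Cxcr1, Cxcr2, Cxcr4 and Cx3cr1, none passed with either fusion, and once blocked Cxcr1, undetected in EGFP, passed as higher in NUP98-CDX4 (adjusted p = 0.0468). Cxcr2, the neutrophil receptor of Cxcl2, was higher in NUP98-CDX4 at 8.79 ± 0.15 against 7.99 ± 0.37 and passed there once blocked by array set (adjusted p = 0.0114, against 0.165 unblocked).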
